A study of Rattus norvegicus with 48 samples.

Results

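Ribosome-bound RNA of D1 medium spiny neurons was compared between rats killed 40 days and rats killed 1 day after their last cocaine self-administration session. The comparison was defined by the sample titles alone and held 16 of the 48 libraries of the series, 8 at withdrawal day 40 and 8 at withdrawal day 1. All 15580 genes that passed a filter on low counts were tested, of 32883 listed. The series sampled the accumbens core of adult rats of both sexes by translating ribosome affinity purification (TRAP), in which antibodies to green fluorescent protein (GFP) pull down tagged ribosomes with the RNA bound to them. Its title places the work in the study of incubation of craving, the growth of cue-driven cocaine seeking over abstinence. The other groups, used here only for the spread and for comparison, were D1:Cre rats after saline and A2a:Cre rats after cocaine at day 40, cocaine at day 1 and saline at day 1, with 8 libraries each.

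Both groups were D1:Cre rats that had taken cocaine over 10 sessions, and they differed by label in the 40 days or the 1 day of withdrawal. Cre in these rats is directed to cells of the dopamine D1 receptor type, and each library came from 1 brain, since the labels count 48 brains for 48 libraries. Sex was not given for each library, and saline animals were sampled at day 1 only, so time since the last session cannot be told apart from age or from time away from the chamber. The middle number of the sample description, which the labels do not explain, was 85 in all 8 day 40 libraries, 89 in day 1 replicates 1 to 4, 91 in replicates 5 and 6 and 92 in replicates 7 and 8. That number cannot be told apart from the withdrawal day, and no choice among these libraries separates them. Key results are also given against the day 1 libraries numbered 89 and those numbered 91 or 92, which shows only how they vary with the day 1 set. The day 1 libraries numbered 89 carried Y-linked reads and the others almost none, so these sets cannot be told apart from sex either.

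Medium spiny neurons are the projection neurons of the accumbens, and those with D1 receptors express dynorphin and signal through the G protein Golf and cyclic AMP. Their excitatory synapses are known to be remodelled as cocaine craving incubates, including changes in AMPA-type glutamate receptors. TRAP reads the RNA that ribosomes carry, so a difference can come from the amount of an RNA, from its loading on ribosomes or from the mix of cells in the pull-down. In such bulk libraries fewer cells of a type and less RNA per cell cannot be told apart.

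Levels are given in CPM, the count of a gene scaled to the size of its library, and for each gene the lowest, the median and the highest of the 8 libraries of a group are listed in that order. Drd1, the D1 receptor, stood at 96.9, 153 and 258 CPM in day 40 libraries, against 131, 159 and 247 CPM in day 1 libraries. Its levels in A2a libraries were 36.5, 46.0 and 52.9 CPM after cocaine at day 40 and 32.3, 42.7 and 46.6 CPM at day 1, below each of the 16 D1 libraries. Penk, the enkephalin precursor of the other neuron type, was at 691, 955 and 1239 CPM in day 40 libraries, against 623, 1061 and 1612 CPM in day 1 libraries, while A2a libraries held 6390.4, 8389 and 11753 CPM at day 40 and 7331, 8909.9 and 10488 CPM at day 1. By these 2 markers the label of the neuron type held in both groups, with transcripts of the other type still counted. Tac1, Pvalb and Pecam1 were not analysed here.

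The summed level of 9 D1 neuron markers was 1224, 1918 and 2388 CPM at day 40, against 1653, 1857 and 2458 CPM at day 1. None of the 9 passed the test, and neither did any of 9 D2/A2a markers, 10 astrocyte markers, 13 oligodendrocyte and myelin markers, 4 precursor markers, 9 endothelial markers, 10 interneuron markers, 7 ependymal markers or 4 excitatory neuron markers. Day 40 replicate 7 was lowest of the 16 for D1 markers and for 16 markers shared by all medium spiny neurons, with sums of 1224 and 7289.8 CPM. It also held the lowest Drd1 and Adora2a of the 16. Library totals ran from 24538643 to 44526708 counts at day 40 and from 36465913 to 43352756 at day 1. Low genes, under about 1 CPM, rest on few reads, and their fitted changes depend on the prior count of the fit.

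Of the 15580 genes, 289 (1.85%) passed an adjusted p of 0.05 in edgeR's quasi-likelihood test with Benjamini-Hochberg adjustment, the test behind each adjusted p below unless another is named, with 109 higher at day 40 (0.7%) and 180 lower (1.16%). The rises were small and lay in well-expressed genes. Their median size was a log2 change of 0.27 (median level 68.3 CPM), and 7 exceeded 2-fold. The falls had a median size of 1.32 on the log2 scale (median level 3.18 CPM), and 114 exceeded 2-fold. Over all genes the median log2 change was -0.0064, and 2379 genes were under an unadjusted p of 0.05. Among 62 gene lists, 27 held at least 1 called gene and 35 held none (81 of their 532 genes were under an unadjusted p of 0.05, and DESeq2 called 12 and limma-voom 0). In the plot of calls by list, most lists with a call held only 1, and the lists with more than 1 rise or fall were endoplasmic reticulum chaperones and the tricarboxylic acid cycle among rises, and the interferon, complement, microglia, plasma cell and B cell, and clock output lists among falls.

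**Figure D1:**
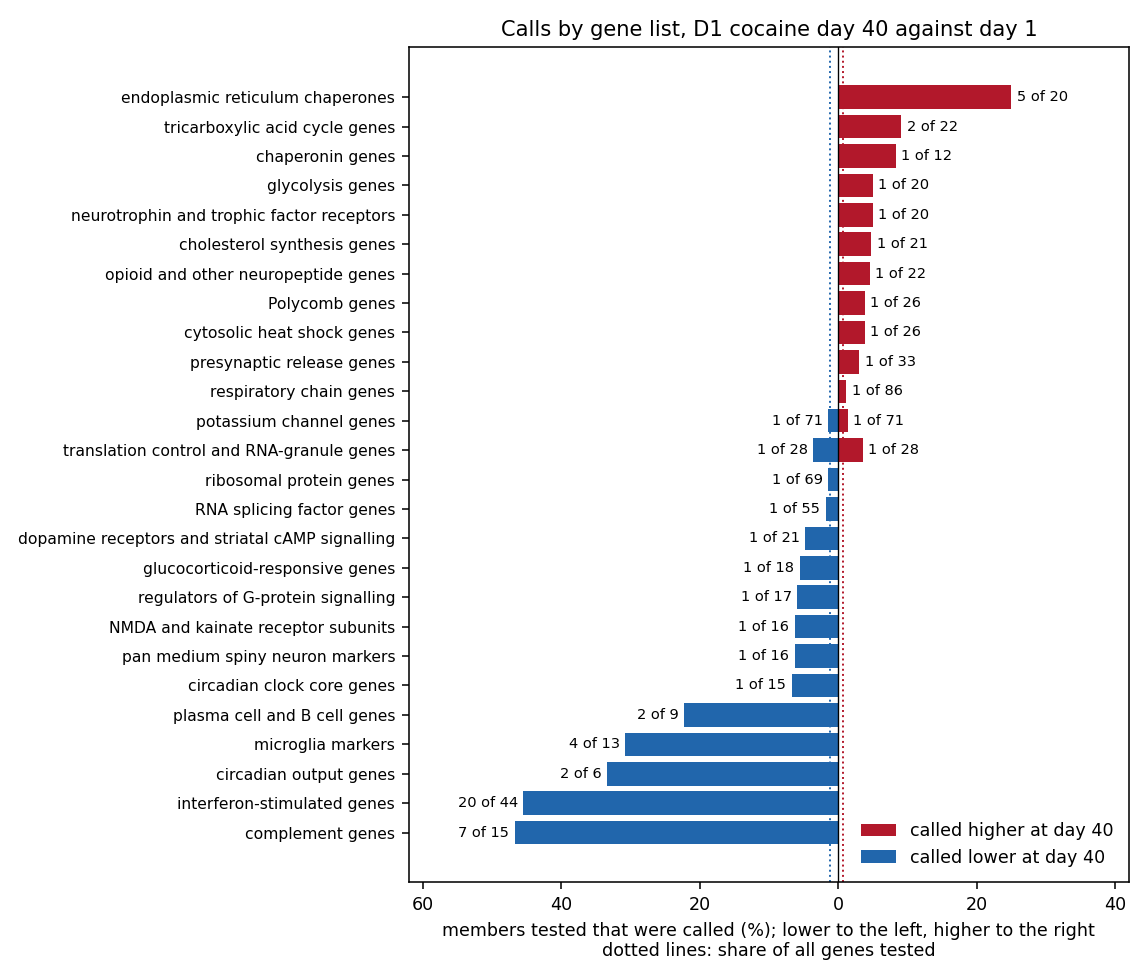
Share of tested members called at an adjusted p under 0.05, in percent, for each gene list of more than 1 tested gene with a call, lower at day 40 to the left and higher to the right, with counts beside the bars. Endoplasmic reticulum chaperones (5 of 20) lead the rises, and complement genes (7 of 15) and interferon-stimulated genes (20 of 44) lead the falls. Dotted lines mark the shares of all 15580 genes, 0.7% higher and 1.16% lower.

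Measured against the 2 kinds of day 1 libraries, the 109 rises had a median log2 change of 0.23 with those numbered 89 and 0.31 with those numbered 91 or 92, and all 109 kept their sign in both. The 180 falls had medians of -0.92 and -1.55, also with all signs kept, but both sets of values rest on the same day 40 libraries and on the day 1 libraries that chose the calls, so these signs were nearly fixed. Over all genes 10634 of 15580 had the same sign in both. The call itself did depend on the set. With the 4 libraries numbered 89 alone, 7 genes passed, 2 higher and 5 lower, Ciart being the only one of the genes named by rule, and with the 4 numbered 91 or 92, 468 passed. Day 1 replicates 1 and 2 stood apart by immune genes, as described further on, and without both of them 568 genes passed. Leaving out 1 library at a time gave 157 to 412 calls. The count moved by over 1.5 times without day 40 replicate 4 (191) or 7 (170), or day 1 replicate 4 (179), 6 (157), 7 (161) or 8 (171).

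In 38 genes (0.244%) no day 40 library overlapped any day 1 library, 20 of them higher at day 40 (0.128%) and 18 lower (0.116%), and 22 of the 38 were also called. Those among the genes named by rule were Hspa5, Hsp90b1, Hspa8, Ldhb, Ndufs7 and Cbx7 above, and Ciart, Dbp and Rgs12 below. Each is described with its group.

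**Figure D2:**
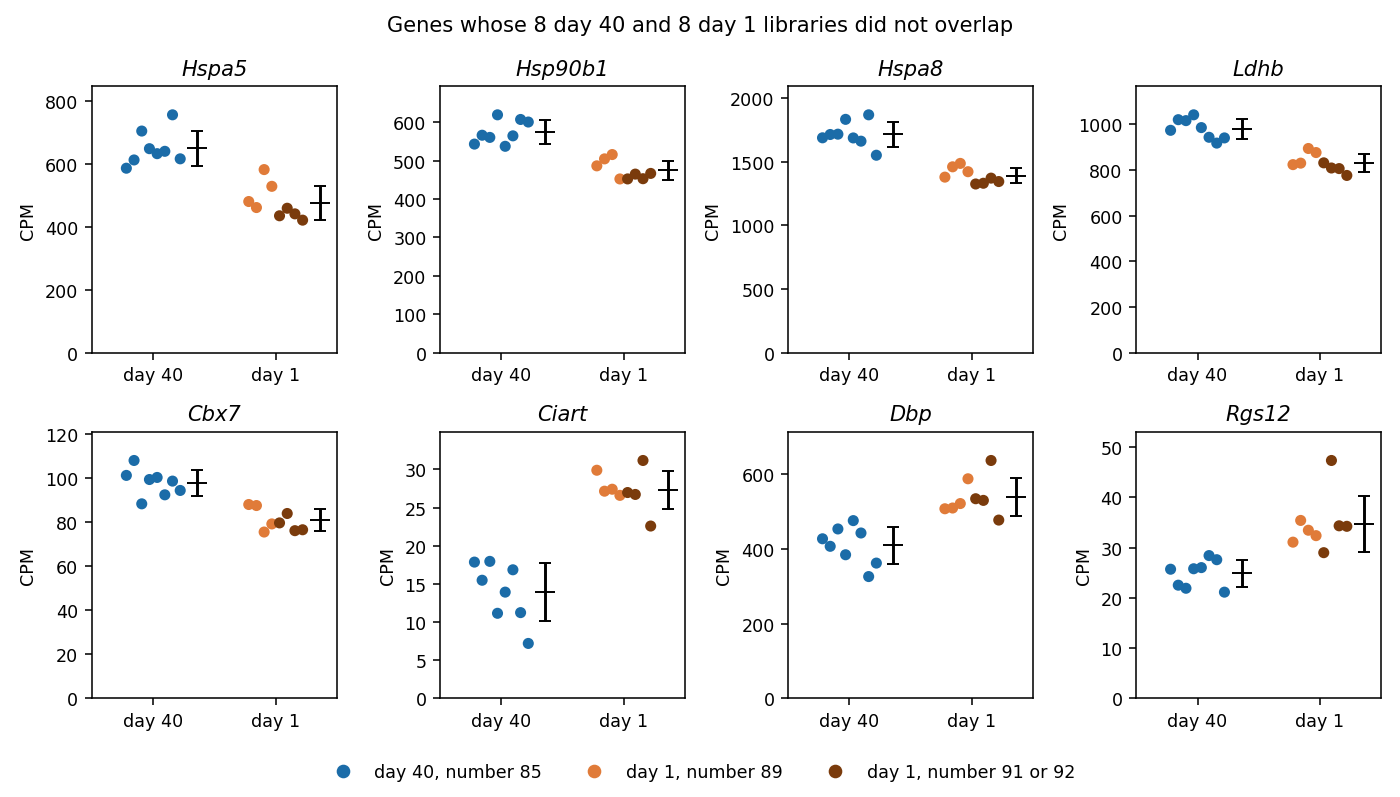
CPM of 8 genes in each of the 16 D1 cocaine libraries, day 40 left of day 1, with colours for the middle number of the sample description and bars for the mean ± SD of 8 libraries. In each panel the 8 day 40 libraries lie wholly above (Hspa5, Hsp90b1, Hspa8, Ldhb, Cbx7) or wholly below (Ciart, Dbp, Rgs12) the 8 day 1 libraries.

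Several chaperones of the endoplasmic reticulum rose. These proteins fold secreted and membrane proteins, receptors and peptide precursors among them, and are induced together when unfolded protein builds up. Of 20 tested members 5 rose and 0 fell, beside 0.7% of all genes, and 19 of the 20 had a log2 change above 0, with a median of 0.15. The promoters of 3 of the 5 carried the endoplasmic reticulum stress element, searched as CCAAT and CCACG with 9 free bases between them, and are shown because this is the element through which the group is known to be induced. They are the 250 bases before the annotated start, from RefSeq on build GRCr8, written 5′ to 3′ in the direction of the gene, with matches on either strand in capitals. Hspa5 lies at chr3:38452766-38453015 on the plus strand, Hsp90b1 at chr7:23012294-23012543 on the minus strand and Creld2 at chr7:121789134-121789383 on the plus strand.
Hspa5: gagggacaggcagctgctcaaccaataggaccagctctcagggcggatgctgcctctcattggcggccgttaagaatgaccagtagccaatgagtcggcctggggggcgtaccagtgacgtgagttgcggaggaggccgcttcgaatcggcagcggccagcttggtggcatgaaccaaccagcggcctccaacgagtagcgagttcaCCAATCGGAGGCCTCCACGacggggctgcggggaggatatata
Hsp90b1: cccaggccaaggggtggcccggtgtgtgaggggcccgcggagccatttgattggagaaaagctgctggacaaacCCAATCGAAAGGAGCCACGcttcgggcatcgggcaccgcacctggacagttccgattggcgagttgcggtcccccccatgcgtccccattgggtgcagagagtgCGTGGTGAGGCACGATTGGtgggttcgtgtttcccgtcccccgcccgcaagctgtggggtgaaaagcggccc
Creld2: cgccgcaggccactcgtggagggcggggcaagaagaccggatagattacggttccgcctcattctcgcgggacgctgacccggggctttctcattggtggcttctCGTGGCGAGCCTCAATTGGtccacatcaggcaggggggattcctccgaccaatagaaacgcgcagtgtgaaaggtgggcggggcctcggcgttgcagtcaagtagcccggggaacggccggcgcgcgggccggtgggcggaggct
The element was found in 22 of 33469 promoters of 300 bases (0.0657%), 250 before and 50 after the start, and in 7 of the 17 tested chaperones with a promoter entry (41.2%). Pdia4 had an entry without a match, and Pdia6 had no entry. A match is a description of these letters and shows no binding.

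Hspa5 encodes BiP, the main luminal Hsp70 of the endoplasmic reticulum, and stood at 586, 636 and 756 CPM in day 40 libraries, against 421, 460.0 and 582 CPM in day 1 libraries. Every day 40 library lay above every day 1 library, by a log2 change of 0.45 ± 0.11 (SE, n = 8 a group; adjusted p = 0.0200). The change was 0.34 against day 1 libraries numbered 89 and 0.57 against those numbered 91 or 92. Hsp90b1, the luminal Hsp90 paralogue GRP94, was at 537, 565 and 619 CPM in day 40 libraries, against 452, 466 and 516 CPM in day 1 libraries. It too separated the groups in full (log2 change 0.28 ± 0.070, adjusted p = 0.0256). Pdia6, a protein disulfide isomerase, reached 182, 211 and 252 CPM in day 40 libraries, against 153, 171 and 192 CPM in day 1 libraries, with overlapping ranges and a log2 change of 0.30 ± 0.069 (adjusted p = 0.0127). Creld2, a stress-induced chaperone of the same compartment, was at 29.8, 34.5 and 41.8 CPM in day 40 libraries, against 21.7, 27.4 and 33.1 CPM in day 1 libraries, again with overlap (log2 change 0.34 ± 0.086, adjusted p = 0.0239). The fifth was Pdia4, another disulfide isomerase, named after its value was seen, with a mean of 66.1 CPM at day 40 and 53.1 CPM at day 1 (log2 change 0.31, adjusted p = 0.0368).

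These calls stood close to the threshold. With the day 1 libraries numbered 89 alone 0 of the 20 passed, and with the interferon level as a term 1 passed. Without day 40 replicate 7, the library with the lowest neuron markers, 1 of the 20 chaperones passed and Hspa5 had an adjusted p of 0.0516 at a log2 change of 0.41. Hsp90b1 missed the threshold without day 40 replicate 4 or 7 or day 1 replicate 4 or 7 (adjusted p 0.0504 to 0.0574), and Creld2 without day 40 replicate 3 or 7 or day 1 replicate 8 (adjusted p 0.0587 to 0.0689). The list had 3 calls without day 40 replicate 3 or day 1 replicate 4, 7 or 8. In D1 saline libraries Hspa5 was at 429.8, 519.5 and 613 CPM, a range that overlapped both cocaine groups.

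None of 22 sensors and regulators of the unfolded protein response passed (2 higher and 1 lower at an unadjusted p under 0.05), with 14 above 0 and a median log2 change of 0.044, and the smallest p was that of Derl2 (log2 change 0.22 ± 0.10, adjusted p = 0.245). In the cytosol, 1 of 26 heat shock genes rose, beside 0.7% of all genes called higher. Hspa8, the constitutive Hsp70 that also uncoats clathrin vesicles, was at 1550.0, 1699.8 and 1867 CPM in day 40 libraries, against 1324, 1374 and 1486 CPM in day 1 libraries, with no overlap (log2 change 0.30 ± 0.073, adjusted p = 0.0182). Hspa8 missed the threshold with day 1 libraries numbered 89 (adjusted p = 0.317), with the interferon level as a term (0.162), and with replicates 1 to 4 or 5 to 8 only. Cct4, a subunit of the chaperonin that folds actin and tubulin, was the call among 12 chaperonin genes, at 195, 213 and 243 CPM in day 40 libraries, against 181, 186 and 202 CPM in day 1 libraries (log2 change 0.20 ± 0.050, adjusted p = 0.0208). Its groups overlapped, and it lost the call without day 40 replicate 7 (adjusted p = 0.0586). Of 31 proteasome genes 0 passed, with 25 above 0 and a median of 0.048, and Psmc5 came nearest (log2 change 0.18 ± 0.054, adjusted p = 0.0703).

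A few clock genes fell, Ciart most clearly. In the molecular clock, repressors and activators drive output genes through E-box and D-box elements, and the level of these genes follows the time of day. Ciart, a repressor of the clock activators, was the gene with the smallest p among those with a name. It stood at 7.20, 14.7 and 17.9 CPM in day 40 libraries, against 22.6, 27.1 and 31.2 CPM in day 1 libraries, so that the highest day 40 library lay below the lowest day 1 library. The log2 change was -0.97 ± 0.15 (SE, n = 8 a group; adjusted p = 0.000216), and it was -0.99 against day 1 libraries numbered 89 and -0.94 against those numbered 91 or 92. It passed in each fit without 1 library and missed the threshold with replicates 1 to 4 of both groups only (adjusted p = 0.129). In D1 saline libraries it was at 18.4, 20.9 and 23.7 CPM, between the cocaine groups at the median. Its promoter, from chr2:186112247-186112496 on the minus strand in build GRCr8 (RefSeq), is shown with its 3 E-boxes, CACGTG, in capitals.
Ciart: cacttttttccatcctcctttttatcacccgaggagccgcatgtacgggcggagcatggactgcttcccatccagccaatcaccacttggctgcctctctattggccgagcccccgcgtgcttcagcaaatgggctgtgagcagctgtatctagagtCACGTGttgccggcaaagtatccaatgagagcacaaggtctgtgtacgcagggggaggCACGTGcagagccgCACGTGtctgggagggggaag
This hexamer, the same on both strands, occurred in 2148 of 33469 promoters (6.42%) and in 4 of the 6 tested output genes. It was found in 1 of the 2 called output genes, Ciart, and in 0 of the 11 tested core clock genes with an entry.

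Dbp, a transcription factor and clock output gene, was at 326, 417 and 476 CPM in day 40 libraries, against 478, 526 and 637 CPM in day 1 libraries. Its groups did not overlap either (log2 change -0.39 ± 0.074, adjusted p = 0.00330). Dbp missed the threshold with day 1 libraries numbered 89 (adjusted p = 0.0779), and with replicates 1 to 4 or 5 to 8 only. Nr1d1, the repressor REV-ERB alpha, was at 72.6, 91.7 and 106 CPM in day 40 libraries, against 100.2, 109 and 117 CPM in day 1 libraries, with overlap at the edges (log2 change -0.30 ± 0.072, adjusted p = 0.0181), and it lost the call without day 40 replicate 7 (adjusted p = 0.0577). Ciart and Dbp were the 2 calls among 6 output genes, of which 1 was above 0 (median -0.28), and Nr1d1 was the single call among 15 core genes, of which 6 were above 0 (median -0.041), beside 1.16% of all genes called lower. In each list 3 genes were lower and 1 was higher at an unadjusted p under 0.05. Among members that missed the threshold, Per1 had a log2 change of -0.33, Bhlhe41 -0.59 and Nfil3 0.27 (adjusted p 0.0638, 0.124 and 0.194 in that order). Arntl, the clock activator BMAL1, had a log2 change of -0.015 (adjusted p = 0.961). The time of day at which each animal was killed is not given in the sources used here.

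In glucose and energy metabolism 4 genes rose, in small steps, beside 0.7% of all genes called higher. Ldhb, the lactate dehydrogenase subunit that favours pyruvate formation, was at 918, 979.8 and 1042 CPM in day 40 libraries, against 776, 827 and 894 CPM in day 1 libraries. All 8 day 40 libraries lay above the day 1 libraries (log2 change 0.24 ± 0.050, adjusted p = 0.00672), and it was the call among 20 glycolysis genes. Ldhb missed the threshold with day 1 libraries numbered 89 (adjusted p = 0.243), with the interferon level as a term (0.0758), and with replicates 1 to 4 or 5 to 8 only. In the tricarboxylic acid cycle list 2 of 22 rose. Fh, fumarate hydratase, was at 108, 123 and 136 CPM in day 40 libraries, against 92.9, 103 and 109.6 CPM in day 1 libraries (log2 change 0.25 ± 0.057, adjusted p = 0.0104). Dlst, the succinyl transferase of the 2-oxoglutarate dehydrogenase complex, was at 159, 172 and 184 CPM in day 40 libraries, against 144, 152 and 165 CPM in day 1 libraries, and both genes had overlapping groups (log2 change 0.16 ± 0.038, adjusted p = 0.0178 for Dlst). Fh missed the threshold with day 1 libraries numbered 89 (adjusted p = 0.121) or 91 or 92 (0.0584). With the interferon level as a term its adjusted p was 0.109. Dlst missed the threshold with libraries numbered 89 (adjusted p = 0.372) and with the interferon term (0.114). It also did so in the 16 D1 cocaine libraries alone. Both genes missed it with replicates 1 to 4 or 5 to 8 only.

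The respiratory chain list had 68 of 86 members above 0 and a median log2 change of 0.076, with 1 call (1.16%, beside 0.7% of all genes called higher and 7564 of 15580 above 0). Ndufs7, a subunit of complex I, was at 282, 306 and 336 CPM in day 40 libraries, against 240.2, 265 and 279.6 CPM in day 1 libraries, without overlap. Its log2 change of 0.23 ± 0.059 passed at an adjusted p of 0.0291 but not without day 40 replicate 2, 3 or 4 or day 1 replicate 8 (adjusted p 0.0504 to 0.0720). None of 13 mitochondrially encoded genes passed, and ND4 had the smallest p among them (log2 change 0.32 ± 0.20, adjusted p = 0.473). Pmvk, a kinase of cholesterol synthesis, was the call among 21 genes of that pathway, at 57.3, 77.4 and 89.8 CPM in day 40 libraries, against 52.6, 62.1 and 70.6 CPM in day 1 libraries (log2 change 0.28 ± 0.074, adjusted p = 0.0332). Its groups overlapped, and it missed the threshold without day 40 replicate 2, 3, 4, 7 or 8 or day 1 replicate 1 or 4 (adjusted p 0.0576 to 0.0804).

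In striatal signalling Gng7 and Rgs12 fell, beside 1.16% of all genes called lower. Gng7, the gamma subunit that pairs with Golf at striatal D1 and A2a receptors, was at 588, 887 and 1177 CPM in day 40 libraries, against 1001, 1124 and 1211 CPM in day 1 libraries. All day 40 libraries but replicate 1 lay below every day 1 library, and the log2 change was -0.35 ± 0.082 (adjusted p = 0.0171). It was the 1 call among 21 dopamine receptor and cyclic AMP genes, of which 19 were below 0 with a median of -0.13, and also the 1 call among 16 pan medium spiny neuron markers. Its lowest library was day 40 replicate 7, low in the summed markers, and it passed in each of the 16 fits without 1 library (adjusted p up to 0.0482). It missed the threshold in the 16 D1 cocaine libraries alone (adjusted p = 0.0874), with day 1 libraries numbered 89 (0.134) or 91 or 92 (0.0985), with the interferon level of each library as a term of the fit (0.0624), and without day 40 replicate 7 and day 1 replicates 1 and 2 together (0.0971). Rgs12, which speeds the switching-off of Gi-coupled signals, was at 21.1, 25.8 and 28.4 CPM in day 40 libraries, against 29.0, 33.9 and 47.4 CPM in day 1 libraries, without overlap (log2 change -0.48 ± 0.10, adjusted p = 0.00649), and was the call among 17 regulators of G-protein signalling. Rgs12 missed the threshold with day 1 libraries numbered 89 (adjusted p = 0.170), with the interferon term (0.109), and with replicates 1 to 4 or 5 to 8 only. Drd1 itself did not pass (log2 change -0.063 ± 0.14, adjusted p = 0.879), nor did Drd2 (log2 change -0.023 ± 0.12, adjusted p = 0.962) or Pdyn, the dynorphin precursor (log2 change -0.089 ± 0.12, adjusted p = 0.789).

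Work on the incubation of craving has centred on excitatory synapses. Here glutamate receptor genes gave 1 call, beside 1.16% of all genes called lower. Grik5, a kainate receptor subunit, was at 223, 250.2 and 302 CPM in day 40 libraries, against 264, 316 and 329 CPM in day 1 libraries. It was lower at day 40 by a log2 change of -0.28 ± 0.068 (adjusted p = 0.0181), with overlap, and was lost without day 40 replicate 7 (adjusted p = 0.0504). It was the call among 16 NMDA and kainate subunits. None of 23 AMPA receptor subunits and auxiliary genes passed (3 higher and 4 lower at an unadjusted p under 0.05), with 13 above 0 and a median of 0.036. Gria1 was at 66.2, 76.2 and 88.8 CPM in day 40 libraries, against 68.9, 77.0 and 104 CPM in day 1 libraries (log2 change -0.079 ± 0.12, adjusted p = 0.815), and Gria2 was at 349, 367 and 426 CPM in day 40 libraries, against 345, 358 and 434 CPM in day 1 libraries (log2 change 0.036 ± 0.066, adjusted p = 0.850). For both subunits the groups overlapped almost in full. Cnih2, an AMPA receptor auxiliary, had the smallest p of that list (log2 change -0.16 ± 0.059, adjusted p = 0.156).

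Further synaptic lists gave 0 or 1 call, beside 0.7% of all genes called higher and 1.16% called lower. Of 14 metabotropic glutamate receptor and Homer genes 0 passed, with Grm5 nearest (log2 change -0.61 ± 0.36, adjusted p = 0.439). Of 19 AMPA receptor trafficking genes 0 passed, with Sacm1l nearest (log2 change 0.23 ± 0.068, adjusted p = 0.0706). Of 27 retinoic acid pathway genes, a pathway linked to synaptic scaling, 0 passed, and Aldh1a1, which makes retinoic acid, was at 1.98, 3.57 and 4.79 CPM in day 40 libraries, against 2.15, 3.58 and 4.99 CPM in day 1 libraries (log2 change -0.039 ± 0.20, adjusted p = 0.959). Postsynaptic scaffold genes had 19 of 22 members below 0 (median -0.12) and 0 calls, with Dlgap4 just short of the threshold (log2 change -0.25 ± 0.071, adjusted p = 0.0513). Actin and spine genes were below 0 in 21 of 27 (median -0.11), also with 0 calls (Arhgef7, log2 change -0.22 ± 0.068, adjusted p = 0.0847). Prrt2, a presynaptic protein of the release machinery, rose and was the call among 33 release genes. It stood at 217, 262 and 291 CPM in day 40 libraries, against 170.3, 208 and 231 CPM in day 1 libraries, with overlap (log2 change 0.30 ± 0.056, adjusted p = 0.00294), and its change was 0.18 (adjusted p = 0.270) against day 1 libraries numbered 89.

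Potassium channels gave 1 call in each direction among 71 genes, near the background of 0.7% of all genes called higher and 1.16% called lower. Kcna5, a delayed rectifier, was at 27.6, 33.1 and 44.1 CPM in day 40 libraries, against 39.8, 42.5 and 48.2 CPM in day 1 libraries (log2 change -0.31 ± 0.082, adjusted p = 0.0319). Its groups overlapped, and it missed the threshold without day 40 replicate 2, 4, 5, 7 or 8 or day 1 replicate 5, 6 or 8 (adjusted p 0.0533 to 0.0830). Kcnv2, a subunit that forms no channel alone, had 14, 5, 34, 7, 9, 0, 7 and 0 reads in day 40 libraries, against 0 to 2 reads in day 1 libraries (log2 change 3.99 ± 1.05, adjusted p = 0.0335), and it was lost without day 40 replicate 3 or day 1 replicate 3, 6, 7 or 8 (adjusted p 0.0550 to 0.108). In A2a libraries its log2 change was 3.89 (adjusted p = 0.139). No gene passed among 15 GABA-A receptor, 24 adhesion, 11 sodium channel, 17 calcium channel, 27 matrix, 30 cytoskeleton, 18 MAP kinase or 9 endocannabinoid genes. The smallest p-values were those of Gabre among GABA-A receptor genes (log2 change 1.44 ± 0.43, adjusted p = 0.0637), Slitrk1 among adhesion genes (log2 change 0.46 ± 0.15, adjusted p = 0.0907) and Cacna2d3 among calcium channel genes (log2 change -0.23 ± 0.076, adjusted p = 0.0953). In the last 4 lists they were those of Hapln4 (log2 change 0.62 ± 0.23, adjusted p = 0.150), Nefh (log2 change 0.32 ± 0.11, adjusted p = 0.110), Dusp7 (log2 change -0.23 ± 0.069, adjusted p = 0.0770) and Mgll (log2 change -0.39 ± 0.13, adjusted p = 0.109).

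Lists of chromatin and RNA-handling genes gave at most 1 call in each direction, beside 0.7% of all genes called higher and 1.16% called lower. Cbx7, the Polycomb protein that reads methylated histone H3, was at 88.4, 99.1 and 108 CPM in day 40 libraries, against 75.6, 79.5 and 88.1 CPM in day 1 libraries. The lowest day 40 library lay just above the highest day 1 library, and the log2 change was 0.28 ± 0.044 (SE, n = 8 a group; adjusted p = 0.000277). It was the call among 26 Polycomb genes. Its log2 change was 0.24 (adjusted p = 0.0688) against the day 1 libraries numbered 89 and 0.31 (adjusted p = 0.000345) against those numbered 91 or 92. Cbx7 also missed the threshold with replicates 1 to 4 of both groups only (adjusted p = 0.192). None of 24 histone deacetylase and DNA methylation genes passed (Mbd1, log2 change -0.095 ± 0.060, adjusted p = 0.473). Hist1h4b, a replication-type histone H4 gene, was lower at day 40, at 5.15, 8.02 and 11.7 CPM in day 40 libraries, against 9.55, 21.1 and 31.7 CPM in day 1 libraries (log2 change -1.30 ± 0.22, adjusted p = 0.000747). Day 1 replicates 1 and 2, at 9.55 and 9.86 CPM, lay inside the day 40 range, and the other 6 day 1 libraries held 17.0 to 31.7 CPM, the same split as in the immune genes described further on. The change was -0.94 (adjusted p = 0.121) against day 1 libraries numbered 89, and -0.69 (adjusted p = 0.0928) with the interferon level of each library as a term of the fit. Histone gene copies are nearly identical, so its counts are uncertain.

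Pabpc1, the cytoplasmic poly(A)-binding protein that helps start translation, was at 142, 159 and 180.1 CPM in day 40 libraries, against 178, 212 and 236 CPM in day 1 libraries. The highest day 40 library just passed the lowest day 1 library, and the log2 change was -0.36 ± 0.070 (adjusted p = 0.00330). Day 1 replicates 1 and 2, at 181 and 178 CPM, were its lowest day 1 libraries. The change was -0.26 (adjusted p = 0.243) against day 1 libraries numbered 89 and -0.17 (adjusted p = 0.201) with the interferon term. Fxr2, a relative of the fragile X protein, was at 242, 246 and 266 CPM in day 40 libraries, against 215, 219 and 243 CPM in day 1 libraries, with a log2 change of 0.17 ± 0.045 (adjusted p = 0.0332). Its ranges touched, and it was lost without day 40 replicate 1, 2 or 4 or day 1 replicate 4, 6, 7 or 8 (adjusted p 0.0516 to 0.0760). Both came from 28 translation control genes. Hnrnpdl, a splicing regulator, was the call among 55 splicing genes, at 76.9, 86.2 and 105 CPM in day 40 libraries, against 99.8, 111 and 131 CPM in day 1 libraries (log2 change -0.37 ± 0.077, adjusted p = 0.00671). None of 34 initiation and elongation factors passed, with Eif4a1 nearest (log2 change -0.12 ± 0.038, adjusted p = 0.0805).

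Of 69 ribosomal protein genes 1 was called, near the background of 1.16% of all genes called lower. Rpl10a encodes the ribosomal protein that carries the GFP tag in the usual TRAP design, although the labels name the antibodies and not the tagged protein. It was at 468, 509.7 and 639 CPM in day 40 libraries, against 407, 815 and 1191 CPM in day 1 libraries (log2 change -0.62 ± 0.14, adjusted p = 0.0148). The difference lay between the kinds of day 1 library, with 407 to 687 CPM in the 4 numbered 89 and 943 to 1191 CPM in the 4 numbered 91 or 92, beside 468 to 639 CPM at day 40. Against the libraries numbered 89 the log2 change was -0.074, and against the others it was -1.01. D1 saline libraries held 665, 985 and 1125 CPM. It missed the threshold without day 1 replicate 8 (adjusted p = 0.0503). Over the other ribosomal protein genes the calls were 0, and the list's median log2 change was 0.01.

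Among the remaining calls with the smallest p or the largest change, most were rises. Cntfr, the binding subunit of the ciliary neurotrophic factor receptor, was at 79.2, 92.5 and 101 CPM in day 40 libraries, against 63.5, 72.0 and 82.3 CPM in day 1 libraries (log2 change 0.33 ± 0.060, adjusted p = 0.00271). It was the call among 20 trophic factor receptor genes, with overlap of a few CPM. Slc4a11, a membrane transporter, was at 13.7, 23.1 and 35.9 CPM in day 40 libraries, against 13.7, 14.3 and 17.4 CPM in day 1 libraries (log2 change 0.64 ± 0.12, adjusted p = 0.00295), and 7 of the 8 day 40 libraries lay above every day 1 library. Adgrg1, the adhesion receptor GPR56, was at 189, 208 and 226 CPM in day 40 libraries, against 162, 173 and 190.3 CPM in day 1 libraries (log2 change 0.23 ± 0.045, adjusted p = 0.00385). Erf, a repressor of the ETS family acting below MAP kinase signalling, was lower, at 52.3, 59.9 and 72.6 CPM in day 40 libraries, against 68.4, 76.1 and 80.6 CPM in day 1 libraries, with overlap (log2 change -0.32 ± 0.061, adjusted p = 0.00330).

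Further calls were Tstd3 (log2 change 0.33 ± 0.063, adjusted p = 0.00330), Ankrd35 (log2 change 0.55 ± 0.12, adjusted p = 0.00919), Isoc2b (log2 change 0.45 ± 0.11, adjusted p = 0.0263) and Cys1, a ciliary protein (log2 change 0.49 ± 0.11, adjusted p = 0.00996). Cygb, cytoglobin, was at 107, 126 and 178 CPM in day 40 libraries, against 70.0, 90.6 and 140.5 CPM in day 1 libraries, with wide overlap (log2 change 0.44 ± 0.11, adjusted p = 0.0244). Its change was 0.21 against day 1 libraries numbered 89 and 0.71 against the others, and it was lost without day 40 replicate 2 or 7 or day 1 replicate 4, 5, 7 or 8 (adjusted p 0.0565 to 0.0826). Coro6, an actin-binding coronin, was at 12.6, 17.1 and 56.7 CPM in day 40 libraries, against 10.9, 13.4 and 19.7 CPM in day 1 libraries (log2 change 0.68 ± 0.19, adjusted p = 0.0450), and without day 40 replicate 8, its highest library, the log2 change was 0.33 and the adjusted p 0.234. Its call was lost without day 40 replicate 4, 6 or 8 or day 1 replicate 2, 3, 4, 5, 6, 7 or 8 (adjusted p 0.0503 to 0.234). Isoc2b was lost without day 40 replicate 4 or day 1 replicate 6 or 8 (adjusted p 0.0537 to 0.0733). Stac2, an adaptor of calcium channels (log2 change 0.44 ± 0.12, adjusted p = 0.0450), was lost without day 40 replicate 2, 3, 4, 5, 7 or 8 or day 1 replicate 1, 3, 4, 5, 6, 7 or 8 (adjusted p 0.0509 to 0.109).

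Rapid and delayed activity genes gave 0 calls. None of 17 rapid immediate early genes passed (2 higher and 0 lower at an unadjusted p under 0.05), with 11 above 0 and a median of 0.017. Fosb, a component of AP-1 that accumulates after repeated cocaine, was nearest, at 28.9, 35.5 and 42.6 CPM in day 40 libraries, against 14.5, 24.0 and 32.0 CPM in day 1 libraries (log2 change 0.55 ± 0.16, adjusted p = 0.0563). Fos was at 5.11, 8.99 and 17.2 CPM in day 40 libraries, against 3.78, 8.01 and 15.0 CPM in day 1 libraries (log2 change 0.31 ± 0.31, adjusted p = 0.693), and Arc was at 32.7, 78.1 and 119 CPM in day 40 libraries, against 30.3, 66.3 and 94.6 CPM in day 1 libraries (log2 change 0.16 ± 0.26, adjusted p = 0.825). In all 3 genes the groups overlapped. Of 18 delayed activity genes 0 passed (Rheb, log2 change 0.18 ± 0.072, adjusted p = 0.185), and Bdnf, the trophic factor, had between 0 and 32 reads in day 40 libraries and between 0 and 13 in day 1 libraries (log2 change 1.20 ± 0.81, adjusted p = 0.507).

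Cdkn1a, the cell cycle inhibitor p21, was the call among 18 glucocorticoid-responsive genes, beside 1.16% of all genes called lower. It stood at 6.96, 10.1 and 16.3 CPM in day 40 libraries, against 5.35, 23.6 and 40.1 CPM in day 1 libraries (log2 change -1.11 ± 0.26, adjusted p = 0.0170), and it was lost without day 1 replicate 4 or 7 (adjusted p 0.0533 and 0.0577). Day 1 replicates 1 and 2, at 7.94 and 5.35 CPM, lay within or below the day 40 range, and the other 6 day 1 libraries, at 20.5 to 40.1 CPM, lay above it. With the interferon term the change was -0.49 (adjusted p = 0.432). Of that list 15 of 18 were below 0, with a median of -0.24, beside 8016 of all 15580 genes below 0. Pomc, the precursor of beta-endorphin made mainly in the hypothalamus and pituitary, was the call among 22 neuropeptide genes, beside 0.7% of all genes called higher. The call rested on 1 library. Day 40 replicate 3 held 93.5 CPM, while the median was 3.12 CPM at day 40 and 3.21 CPM at day 1. Without that library the log2 change was -0.0082 and the adjusted p 0.994.

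Summed interferon-stimulated, complement and microglia genes were each lower in each day 40 library than in 6 of the 8 day 1 libraries, while day 1 replicates 1 and 2 were about as low as day 40. Interferon-stimulated genes, which cells switch on in answer to interferons, fell in 20 of 44 tested members and rose in 0, beside 1.16% of all genes called lower, and 43 of the 44 were below 0 with a median log2 change of -1.42. In A2a libraries the median of the same list between day 40 and day 1 was 0.46. The summed level of the list was 173, 206 and 264 CPM at day 40, against 171, 433 and 842 CPM at day 1 and 336, 601 and 734 CPM after saline. Within the day 1 group, replicates 1 and 2 held 171 and 230.1 CPM, and replicates 3 to 8 held 367 to 842 CPM. A2a cocaine libraries ran from 289 to 939.9 CPM at day 40 and from 166 to 782 CPM at day 1.

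**Figure D3:**
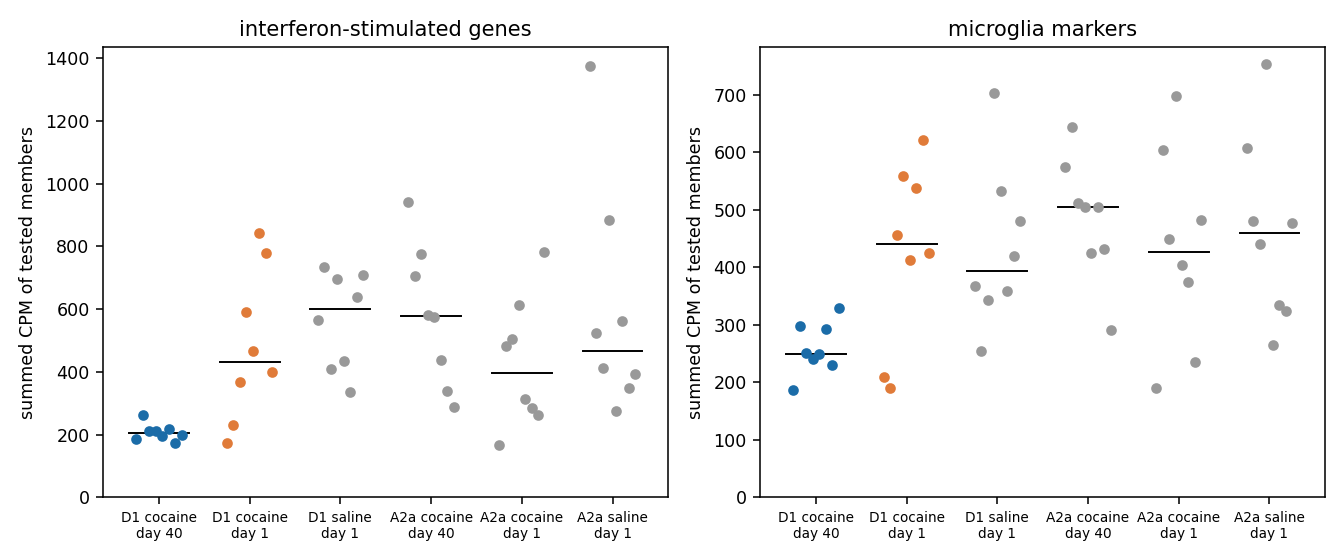
Summed CPM of 44 interferon-stimulated genes (left) and 13 microglia markers (right) in each of the 48 libraries, by group, with bars at the median of 8 libraries. The 8 D1 day 40 libraries lie between 173 and 264 CPM for the interferon list, together with 2 of the 8 D1 day 1 libraries, while the other 6 reach 367 to 842 CPM.

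Mx1, an antiviral GTPase, was at 0.116, 0.427 and 2.00 CPM in day 40 libraries, against 0.571, 7.27 and 21.0 CPM in day 1 libraries. Its log2 change was -3.81 ± 0.76 (SE, n = 8 a group; adjusted p = 0.00555), and day 1 replicates 1 and 2, at 0.71 and 0.57 CPM, lay inside the day 40 range. Rsad2, which encodes viperin, was at 0.186, 0.645 and 1.35 CPM in day 40 libraries, against 0.529, 5.65 and 13.9 CPM in day 1 libraries (log2 change -3.07 ± 0.61, adjusted p = 0.00541). Ifi27 was at 10.4, 15.0 and 24.0 CPM in day 40 libraries, against 10.3, 44.0 and 101 CPM in day 1 libraries (log2 change -1.70 ± 0.40, adjusted p = 0.0181). Its call was lost without day 1 replicate 4 (adjusted p = 0.0514). Irf9, part of the factor that carries the interferon signal to these genes, was at 4.03, 5.96 and 8.09 CPM in day 40 libraries, against 6.35, 12.0 and 26.7 CPM in day 1 libraries (log2 change -1.22 ± 0.33, adjusted p = 0.0444), and it was lost without day 40 replicate 1, 2, 3, 4, 5, 6, 7 or 8 or day 1 replicate 4, 6, 7 or 8 (adjusted p 0.0517 to 0.121). Other calls were Zbp1 (log2 change -4.02 ± 0.82, adjusted p = 0.00622), Ifi27l2b (log2 change -2.74 ± 0.55, adjusted p = 0.00602) and Lgals3bp (log2 change -1.51 ± 0.37, adjusted p = 0.0227), the last of which missed the threshold without day 1 replicate 6 or 7 (adjusted p 0.0770 and 0.0546). The list had 13 calls without day 40 replicate 7 or day 1 replicate 4, 9 without day 1 replicate 6 and 10 without day 1 replicate 7.

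A simple form of the interferon-stimulated response element, GAAA and GAAA with 2 free bases between them, was searched on both strands of the same promoters. It was found in 1312 of 33469 (3.92%), in 24 of the 34 tested interferon genes with an entry (70.6%) and in 13 of the 16 called ones (81.2%). The promoters of Rsad2, chr6:48788121-48788370 on the minus strand, and Ifi27, chr6:128355062-128355311 on the plus strand (GRCr8, RefSeq), are shown because both genes fell and hold a match, which is in capitals.
Rsad2: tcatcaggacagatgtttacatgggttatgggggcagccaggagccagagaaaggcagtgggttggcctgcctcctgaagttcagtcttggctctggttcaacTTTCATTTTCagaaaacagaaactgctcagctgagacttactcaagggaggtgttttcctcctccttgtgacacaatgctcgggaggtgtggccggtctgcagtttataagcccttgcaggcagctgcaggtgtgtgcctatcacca
Ifi27: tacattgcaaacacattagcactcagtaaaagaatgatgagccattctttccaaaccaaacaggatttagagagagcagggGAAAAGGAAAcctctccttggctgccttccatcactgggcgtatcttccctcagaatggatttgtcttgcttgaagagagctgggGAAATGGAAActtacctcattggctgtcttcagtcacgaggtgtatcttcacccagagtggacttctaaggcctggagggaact
Mx1 had an entry without a match, which says only that these letters are not in its window.

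Complement genes, which tag cells and debris for removal, fell in 7 of 15 members, beside 1.16% of all genes called lower. C3, the central component, was at 3.11, 9.41 and 16.6 CPM in day 40 libraries, against 6.23, 60.7 and 90.6 CPM in day 1 libraries. Day 1 replicates 1 and 2, at 6.23 and 11.0 CPM, lay inside the day 40 range, and the other 6 day 1 libraries held 51.9 CPM or more (log2 change -2.57 ± 0.50, adjusted p = 0.00468). The proteases C1s (log2 change -1.41 ± 0.30, adjusted p = 0.00716) and C1r (log2 change -1.51 ± 0.32, adjusted p = 0.00716), the receptor subunit Itgam (log2 change -1.38 ± 0.30, adjusted p = 0.00996) and C1qa (log2 change -1.11 ± 0.30, adjusted p = 0.0422) were also lower. C1qa missed the threshold without day 40 replicate 1, 2, 3, 4, 5, 6 or 7 or day 1 replicate 3, 4, 5, 6, 7 or 8 (adjusted p 0.0504 to 0.105), and the list had 4 calls without day 40 replicate 5 or day 1 replicate 7. The summed list was 182, 244 and 307 CPM at day 40, against 194, 437 and 592 CPM at day 1.

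**Figure D4:**
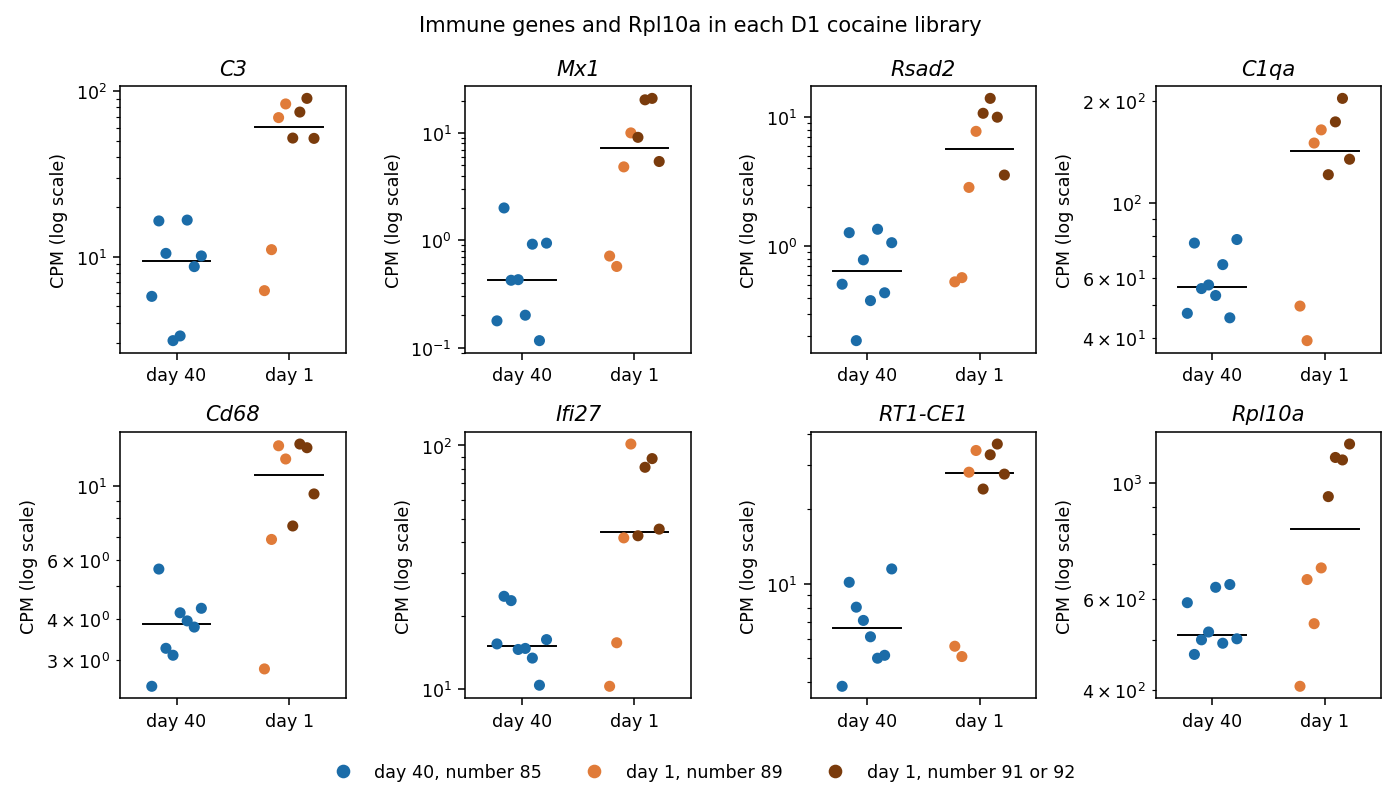
CPM on a log scale of 7 immune genes and Rpl10a in the 16 D1 cocaine libraries, day 40 left of day 1, with bars at the median and colours for the middle number of the sample description. For C3, Mx1, Rsad2 and RT1-CE1, 2 of the 4 day 1 libraries numbered 89 (replicates 1 and 2) lie within the day 40 range, whereas Rpl10a is high in the 4 day 1 libraries numbered 91 or 92.

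Of 13 microglia markers 4 fell (Itgam, Cd68, C1qa and Tyrobp), beside 1.16% of all genes called lower, and 12 were below 0 with a median of -0.90. Cd68, a lysosomal protein of phagocytes, was at 2.51, 3.86 and 5.63 CPM in day 40 libraries, against 2.83, 10.7 and 13.3 CPM in day 1 libraries (log2 change -1.35 ± 0.30, adjusted p = 0.0124), and Tyrobp, a signalling adaptor, was at 4.51, 11.4 and 17.6 CPM in day 40 libraries, against 8.67, 26.9 and 35.2 CPM in day 1 libraries (log2 change -1.06 ± 0.29, adjusted p = 0.0442) and was lost without day 40 replicate 1, 2, 3, 4, 5, 6 or 7 or day 1 replicate 3, 4, 5, 6, 7 or 8 (adjusted p 0.0548 to 0.106). The list had 2 calls in each of 13 of the 16 fits without 1 library, those without day 40 replicates 1 to 7 or day 1 replicates 3 to 8. Over the list 10 of 13 were lower at an unadjusted p under 0.05, beside 1216 of all 15580 genes. Cx3cr1, P2ry12, Aif1, Csf1r and Tmem119 did not pass, and none of them was at 0 in any library. Aif1 was at 7.94, 13.8 and 22.5 CPM at day 40, against 10.1, 28.0 and 39.2 CPM at day 1 (log2 change -0.90, adjusted p = 0.0805), with Csf1r at -0.61 and Tmem119 at -0.53 (adjusted p 0.109 and 0.179 in that order). Cx3cr1 was at 3.07, 4.15 and 5.92 CPM at day 40, against 3.64, 5.47 and 9.42 CPM at day 1 (log2 change -0.46, adjusted p = 0.278). P2ry12 was at 3.63, 4.33 and 7.79 CPM at day 40, against 2.75, 4.63 and 9.38 CPM at day 1 (-0.22, adjusted p = 0.718). The summed list was 186, 250.0 and 328 CPM at day 40, against 189.6 to 209.6 CPM in day 1 replicates 1 and 2 and 412 to 622 CPM in the other 6. The part of these cells in the other falls was not tested. The calls in these 3 immune lists also turned on the tool and the libraries. Of the interferon, complement and microglia lists, in that order, limma-voom called 1, 0 and 0 genes and DESeq2 29, 10 and 6. Without day 1 replicates 1 and 2, which were singled out for their low level of such genes so that more falls follow from the choice, the counts were 31, 11 and 9, and with the day 1 libraries numbered 89 alone they were 0, 0 and 0.

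Class II histocompatibility genes had 0 calls of 6, although all 6 were below 0, with a median of -1.77. All 6 were lower at an unadjusted p under 0.05, beside 1216 of all 15580 genes. Their summed level was 18.3 to 30.8 CPM in day 1 replicates 1 and 2 and 122 to 165 CPM in the other 6. Cd74, their invariant chain, was at 3.97, 19.1 and 39.7 CPM in day 40 libraries, against 12.3, 97.7 and 114 CPM in day 1 libraries (log2 change -1.99 ± 0.64, adjusted p = 0.0941). Day 1 replicates 1 and 2, at 12.3 and 19.9 CPM of Cd74, lay inside the day 40 range. RT1-CE1, a class I gene, was called (log2 change -1.78 ± 0.40, adjusted p = 0.0136), but near-identical class I copies leave its counts uncertain. None of 12 interferon and cytokine receptor genes passed (Ifngr1, log2 change -0.25 ± 0.078, adjusted p = 0.0805). Of 9 plasma cell and B cell genes 2 fell, at low levels, beside 1.16% of all genes called lower. Jchain, the joining chain of secreted antibodies, was at 1.01, 1.16 and 1.60 CPM in day 40 libraries, against 1.08, 7.30 and 27.6 CPM in day 1 libraries (log2 change -3.23 ± 0.71, adjusted p = 0.0104). Its lowest day 1 libraries were replicates 1 and 2, at 1.08 and 1.82 CPM. Pou2af1, a B cell coactivator, had 0, 4, 0, 0, 0, 0, 1 and 0 reads in day 40 libraries, against 0 and 0 reads in day 1 replicates 1 and 2 and 8 to 45 in the other 6 (log2 change -4.27 ± 1.00, adjusted p = 0.0158). Of 5 T cell and NK cell genes 0 passed (Ccl5, log2 change -1.94 ± 0.70, adjusted p = 0.139), and neither did any of 3 red blood cell genes (Alas2, log2 change -1.39 ± 0.43, adjusted p = 0.0804).

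The entry with the largest fall had no gene name in the deposited table. ENSRNOG00000048402 had 1, 4, 0, 0, 0, 0, 6 and 0 reads in day 40 libraries and 0 reads in day 1 replicates 1 and 2, against 2612 to 32317 reads in the other 6 day 1 libraries (adjusted p = 0.000216). Its zeros at day 1 were the same 2 libraries that were low in immune genes. ENSRNOG00000054978, also without a name, separated the groups in full, with 369 to 807 reads at day 40 and 689 to 1449 at day 1, and on CPM no day 40 library reached the lowest day 1 library.

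Replicates also differed by sex-linked genes. In both groups replicates 1 to 4 carried Y-linked reads and replicates 5 to 8 had almost none, and the day 1 libraries numbered 89 were those 4 with Y-linked reads. Replicates 1 to 4 alone gave 0 calls in edgeR, with 1184 genes under an unadjusted p of 0.05, and replicates 5 to 8 alone gave 88 calls, 28 higher and 60 lower. When the level of the interferon list in each library was a term of the fit, 51 genes passed, 22 higher and 29 lower, of which 37 were among the 289. These 37 held Ciart, Dbp, Cbx7, Cntfr, Slc4a11, Erf, Tstd3, Adgrg1, Hnrnpdl, Grik5, Creld2 and Isoc2b. That no interferon gene was among them follows from the construction of the term, which is the level of that list, and complement and microglia genes, which moved with it across these libraries, gave 0 calls as well. The median log2 change of the 109 rises was 0.26 in that fit, and that of the 180 falls was -0.40.

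The same comparison in A2a neurons, on other libraries, called 41 genes (0.263%), 17 higher and 24 lower. A2a cocaine day 1 replicate 7 held only 5293586 counts, against 28003446 to 42889860 in the rest of its group. Without that library the D1 comparison gave 342 calls, 135 higher and 207 lower. How the A2a calls depend on it is not given here. Both neuron types called 4 genes, 1.38% of the D1 calls and 9.76% of the A2a calls, each in the same direction. They were Cbx7 (log2 change 0.28 in D1 and 0.29 in A2a), Cys1 (0.49 and 0.50), LOC680121 (1.40 and 1.64) and Rassf1 (0.20 and 0.25), the last 2 named after their values were seen. Of the 109 rises 78.0% had the same sign in A2a, and of the 180 falls 35.6%, beside 54.9% of all genes. Hspa5 had a log2 change of 0.34 in A2a (adjusted p = 0.181), and Ciart -0.38 (adjusted p = 0.276).

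**Figure D5:**
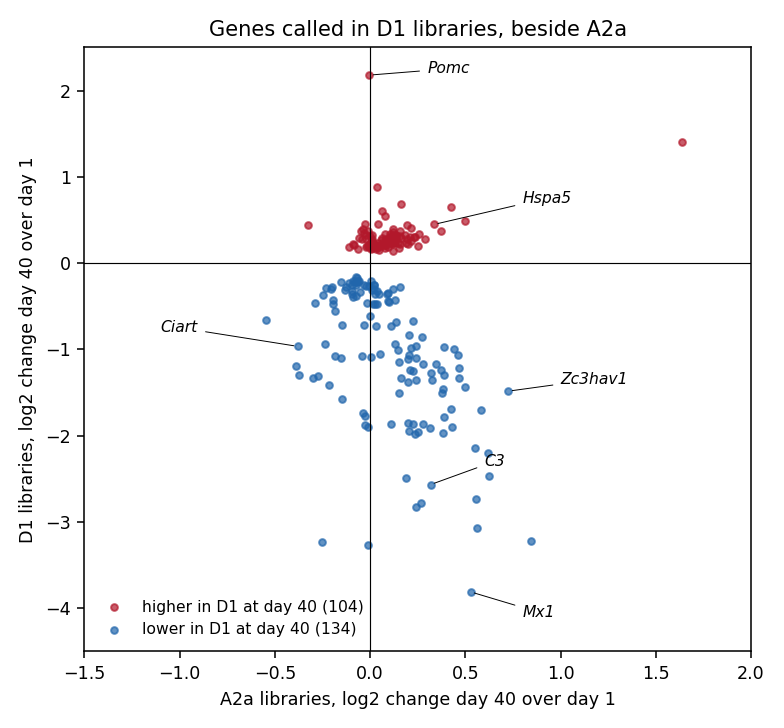
Log2 change between day 40 and day 1 in D1 libraries (vertical) against A2a libraries (horizontal), for called genes with a mean of at least 1 CPM, 104 higher and 134 lower in D1 at day 40, of which 3 lie outside the axes. Rises in D1 lie near or right of 0 in A2a, and many of the large falls in D1 lie to the right of 0.

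The difference between the changes in D1 and A2a was tested directly and passed in 10 genes (0.0642%), 6 of them among the 289. The middle number of the description was 85 in every D1 day 40 library and 88 in every A2a day 40 library. In this test neuron type therefore cannot be told apart from that number. Over all genes 1632 were under an unadjusted p of 0.05, and DESeq2 gave 121 calls and limma-voom 3. Of the 101 genes named by rule 0 passed in edgeR. The nearest were Rsad2 (difference -3.64 on the log2 scale, adjusted p = 0.0560), Stac2 (0.77, adjusted p = 0.0560), Ifi27l2b (-3.29, adjusted p = 0.0562) and Mx1 (-4.34, adjusted p = 0.0598). Stac2 had a log2 change of 0.44 in D1 and -0.33 in A2a. For Hspa5 the difference was 0.11 ± 0.15 (adjusted p = 0.870), for Ciart -0.59 ± 0.20 (adjusted p = 0.235) and for Gng7 -0.44 ± 0.12 (adjusted p = 0.0945). The genes with a name that passed were Zc3hav1, an antiviral RNA-binding protein (log2 change -1.48 in D1 and 0.73 in A2a), Xaf1 (-0.64 and 0.68) and Wdtc1 (-0.10 and 0.24), named after their values were seen. Leaving out day 1 replicate 1 gave 70 such genes, and day 1 replicate 2 gave 74. Leaving out day 40 replicate 4 or day 1 replicate 6, 7 or 8 gave 6. These were D1 libraries, and leaving out A2a cocaine day 1 replicate 7, of low depth, gave 8.

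Genes that distinguish the neuron types in saline animals were also looked up among the calls. Of the 109 rises 13.8% were higher and 4.59% lower in D1 than in A2a saline libraries. Of the 180 falls 1.67% were higher and 7.22% lower in D1. Over all genes 4.12% were higher and 4.01% lower. The median level was 68.3 CPM in the rises, 3.18 CPM in the falls and 13.1 CPM over all genes, and level was not accounted for. These shares describe the called genes and carry no test.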

How the data were processed

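Nucleus accumbens TRAP RNA-seq of 48 libraries was deposited by the authors as 1 table of whole-number counts for 32883 gene IDs, of which 12500 carried no gene name. Per the submitters' processing notes the tools were bcl2fastq, Trimmomatic, STAR and SAMtools, with genome build Rnor_6.0; no source used here names their versions, the counter, the annotation or the strand setting. Without a known strand setting, reads of overlapping and antisense genes cannot be told apart. Groups came from the sample titles.

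From the deposited counts, edgeR 4.0.16 (R 4.3.3) was run on 15580 genes kept by its expression filter (minimum count 10), with TMM scaling, all 48 libraries and 1 term per group, so that the groups share 1 estimate of the spread. The robust quasi-likelihood test gave p-values, adjusted by Benjamini-Hochberg over all 15580 genes with a threshold of 0.05. The standard error is the log2 change over the square root of F, and CPM uses TMM-scaled totals. The difference between D1 and A2a changes was tested in the same fit. The script was tested on simulated data. Library totals were 24538643 to 44526708 counts in the 16 libraries compared, and no pair of libraries within a group held identical values.

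Genes were named by rule: those with the smallest p and the largest changes in each direction above a mean log2 CPM of 3, the call or smallest p of each list, and a panel of striatal genes, some of which are not reported here. The members and lists were chosen with earlier results of these data known. Alternatives were DESeq2 1.42.0, limma-voom 3.58.1, other filters, scaling, covariates and sets of libraries. Replicate numbers are shared across groups, but only 2 of 8 same-numbered pairs deviated together (correlation over 0.1), so they were not used as pairs. Promoter sequences came from RefSeq (GRCr8), matched by gene symbol.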

Additional observations from a re-analysis of the deposited data

Results flagged for a closer look

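Among 202 sets of 8 libraries (101 genes named by rule in both groups), 14 held a library far from the other 7 by Dixon's criterion on log2 CPM, or 6.93%. Chance flags about 1 in 20 such sets. No explanation was tested for any of them.

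At day 40, Pomc reached 93.5 CPM in replicate 3 (group median 3.12 CPM), and Coro6 reached 56.7 CPM in replicate 8 (median 17.1 CPM). Adora2a stood apart on the low side in replicate 7, with 85.5 CPM (median 223 CPM), the library that was also lowest for medium spiny neuron markers. Grm5 was at 11.7 CPM in replicate 1 (median 6.50 CPM), and Pou2af1 was at 0.108 CPM in replicate 2 (median 0), which is 4 reads.

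At day 1, replicate 2 stood apart in 4 genes. Adora2a was at 122 CPM there (median 221 CPM), Nefh at 140.3 CPM (median 75.4 CPM), Fosb at 14.5 CPM (median 24.0 CPM) and Fxr2 at 243 CPM (median 219 CPM). Replicate 3 was highest for Cct4, with 202 CPM (median 186 CPM), and for Sacm1l, with 51.5 CPM (median 43.2 CPM). Cd68 was at 2.83 CPM in replicate 1 (median 10.7 CPM), Ankrd35 at 17.5 CPM in replicate 4 (median 12.6 CPM) and Rgs12 at 47.4 CPM in replicate 6 (median 33.9 CPM).

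The change differed between D1 and A2a libraries by the direct test in 10 genes, which cannot separate neuron type from the middle number of the day 40 libraries. The 3 with a name were Zc3hav1 (difference -2.21 on the log2 scale), Xaf1 (-1.32) and Wdtc1 (-0.34). The other 7 had no name in the deposited table. In 4 of them the difference was below 0 (-6.40, -8.41, -10.68 and -12.89, the last in ENSRNOG00000048402), and in 3 it was above 0 (2.50, 4.66 and 7.67). The fitted sizes in genes with libraries at 0 reads depend on the prior count.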

How the results depend on the processing

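Of 56 called genes named by rule, 33 kept the call in each of the 16 fits without 1 library, and 0 kept it under every alternative. The direction of each called gene held in every alternative run except Pomc (-0.041 with DESeq2) and Irf9 (0.042 with the interferon level as a term). Against 289 calls (109 higher, 180 lower), the 16 D1 cocaine libraries alone gave 136 (43 and 93), DESeq2 519 (214 and 305) and limma-voom 156 (93 and 63), so that 59.6% were higher with limma-voom and 37.7% with edgeR. Keeping all genes with a read gave 66 higher. The day 1 libraries numbered 89 alone gave 7 (2 and 5) and those numbered 91 or 92 468 (200 higher). The next 2 alternatives were chosen because earlier results of these data had shown day 1 replicates 1 and 2 to be low in interferon genes. Leaving out day 1 replicates 1 and 2 gave 568 (214 and 354), and the interferon level as a term gave 51 (22 and 29). In 3 further sets, also chosen after seeing the data, replicates 1 to 4 gave 0 (0 and 0), replicates 5 to 8 gave 88 (28 and 60), and leaving out day 40 replicate 7 with day 1 replicates 1 and 2 gave 462 (172 and 290). Leaving out 1 library gave 157 to 412 calls, 51 to 160 higher and 100 to 252 lower. Some of these settings hold fewer libraries; for the rest the cause was not tested.

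The 10 genes that differed between D1 and A2a became 121 with DESeq2, 3 with limma-voom, 1 and 154 with the day 1 libraries numbered 89 and 91 or 92, 197 without day 1 replicates 1 and 2, 0 with the interferon term, 0 and 17 in replicates 1 to 4 and 5 to 8, 134 without day 40 replicate 7 and day 1 replicates 1 and 2, and 6 to 74 without 1 library. Fewer libraries give more non-overlap by construction: the 38 genes became 140, 638, 294, 579, 1380 and 351 in the sets with day 1 numbered 89, numbered 91 or 92, without day 1 replicates 1 and 2, replicates 1 to 4, replicates 5 to 8, and without all 3 libraries named, and 44 to 84 without 1 library.

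The fit with a replicate block gave 245 calls, 97 higher and 148 lower, and 7 between neuron types. Same-numbered day 40 and day 1 libraries correlated by -0.033 to 0.25, and 1 of 8 day 40 libraries correlated best with its own number.

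Of the 45 genes named by rule that did not pass, 21 passed under some alternative (11 with DESeq2), and 9 did so without day 1 replicates 1 and 2, among them Nefh (adjusted p = 0.000109), Ifngr1 (0.00152), Hapln4 (0.0172), Aqp4 (0.0184) and Cd74 (0.0319). Of the 45, 8 changed sign under some alternative. With day 1 libraries numbered 89, Adora2a was 0.017, Gria2 -0.022, Drd2 0.063 and Uty -0.83. With those numbered 91 or 92, Pdyn was 0.039, Drd1 0.15 and Aldh1a1 0.083. Without day 1 replicates 1 and 2, Gria1 was 0.044, Drd1 0.050 and Aldh1a1 0.0018. With the interferon term, Gria2 was -0.035, Aldh1a1 0.017 and Drd2 0.063. In replicates 1 to 4, Adora2a was 0.12, Aldh1a1 0.050 and Drd2 0.067, and in replicates 5 to 8, Gria1 was 0.0044 and Uty 0. Without day 40 replicate 7 and day 1 replicates 1 and 2, Pdyn was 0.023, Gria1 0.026 and Drd1 0.13. Without 1 library the ranges were Aldh1a1 -0.13 to 0.058, Uty -0.13 to 0.50, Pomc -0.0082 to 2.35, Drd2 -0.11 to 0.060, Adora2a -0.20 to 0.012 and Drd1 -0.19 to 0.039. Depth limits genes under about 1 CPM.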

Other observations

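Cell type markers outside the immune lists had overlapping levels in the 2 groups. Summed astrocyte markers were at 1711, 2289 and 2616 CPM at day 40, against 1711, 2289 and 2838 CPM at day 1. Gfap, the filament protein of reactive astrocytes, was at 126, 166 and 264 CPM at day 40, against 123, 257 and 476 CPM at day 1, and did not pass (log2 change -0.57, adjusted p = 0.179). Summed oligodendrocyte and myelin markers were at 3585, 4969 and 6296 CPM at day 40, against 4273, 5350.5 and 7105 CPM at day 1, with Mbp, the myelin basic protein, at a log2 change of -0.17 (adjusted p = 0.558). Endothelial and pericyte markers summed to 34.2, 47.2 and 56.8 CPM at day 40, against 34.6, 55.5 and 75.0 CPM at day 1.

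The interneuron peptide Sst was at 635, 992 and 1210 CPM at day 40, against 829.7, 1163 and 1452 CPM at day 1 (log2 change -0.21, adjusted p = 0.501). Npy, a peptide of the same interneurons, was listed at 0 reads in all 16 libraries, while Sst was abundant in each. Slc17a7, a vesicular glutamate transporter of cortical neurons, was at 0.312, 0.894 and 13.7 CPM at day 40, against 0.637, 1.43 and 11.1 CPM at day 1. Slc17a6, the transporter of thalamic and other subcortical neurons, was at 0.127, 2.23 and 15.4 CPM at day 40, against 0.546, 1.85 and 5.30 CPM at day 1. The smallest p-values of marker lists without a call belonged to Aqp4 among astrocyte markers (log2 change -0.35 ± 0.12, adjusted p = 0.109), Rgs5 among endothelial and pericyte markers (log2 change -0.71 ± 0.22, adjusted p = 0.0829), Mag among oligodendrocyte markers (log2 change -0.22 ± 0.14, adjusted p = 0.496) and Ccdc153 among ependymal markers (log2 change 0.57 ± 0.26, adjusted p = 0.287).

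In 80 of the 180 falls both day 1 replicates 1 and 2 lay inside the day 40 range, as they did in 30 of the 109 rises and in 8853 of all 15580 genes.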
